A study of Homo sapiens with 2 samples.

Results

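MHC class I molecules are made of a polymorphic heavy chain and β2-microglobulin, and they carry peptides from inside the cell to its surface, where CD8+ T cells read them. Cytosolic peptides cut by the proteasome are pumped into the endoplasmic reticulum by the transporter TAP and loaded onto the heavy chain with the help of tapasin. Heavy-chain genes and their partners share promoter elements that answer interferon-γ and the transactivator NLRC5, and tumours, pancreatic ones included, are known for low class I display. The 9 genes described here cover those roles. HLA-B and HLA-C encode classical heavy chains and HLA-E and HLA-F non-classical ones, while B2M encodes the invariant light chain. TAP1 and TAP2 encode the transporter, TAPBP encodes tapasin, and NLRC5 encodes the transactivator. The 9 were a list of gene symbols chosen with earlier results of these data known. All were found among 19974 protein-coding RefSeq genes on chromosomes 1 to 22 and X.

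The 2 samples were PANC-1 cells treated with inflachromene and PANC-1 cells treated with the solvent DMSO, 1 library each. PANC-1 is an established human line from a pancreatic ductal carcinoma, and inflachromene is a small molecule known to bind HMGB1 and HMGB2. Both were crosslinked in 15 mM EGS and then in 1% formaldehyde before ChIPmentation, in which Tn5 transposase adds the sequencing adapters to chromatin held by an antibody. The labels used here name neither the protein that the antibody recognised nor the dose and length of treatment. A cell line holds no T cells or antigen-presenting cells, so only the tumour cells' own class I genes could be seen.

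The deposited peak lists held 10836 inflachromene peaks and 15186 DMSO peaks on these chromosomes. A gene was counted for a list when a peak summit of that list, or its peak overlapping such a summit of the other list, lay within 1 kb of either annotated end. The level given for a peak is its pileup, the number of fragments over the summit, with an exact Poisson 95% interval. The interval of a ratio is the exact conditional binomial one. Both cover counting error only. With no replicate library, no test between treatments was possible, and the values compare 2 libraries rather than 2 conditions. The inflachromene library was inferred to hold 0.965 times as many fragments as the DMSO library. Over the 7267 genes with overlapping gene-end peaks in both lists, pileup in inflachromene was at the median 0.822 times that in DMSO. The ratios below stand against this shift. As a check of the cell type, KRT8 and KRT18 (1 shared peak), VIM and CAV1 had gene-end peaks in both lists, and KRT19 and ZEB1 in DMSO alone. EPCAM, CDH1 and KRT7, the other epithelial markers, had no peak. Of 10 immune cell markers 6 had none, PTPRC, CD3E, MS4A1, ITGAM and ITGAX among them. SPI1 held 18 fragments in each list, CD68 had 42 in inflachromene and 46 in DMSO at an end shared with EIF4A1, CD14 had 10 in inflachromene alone, and CSF1R had 12 in DMSO alone at an end shared with PDGFRB. A gene-end peak of an unnamed protein is thus no direct measure of cell type here.

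Of the 9 genes, 8 had a gene-end peak in inflachromene and 8 in DMSO, against 38.2% and 45.8% of all protein-coding genes. They were the same genes except for 1 in each list. HLA-B, HLA-C, HLA-E, B2M, TAP1, TAP2 and TAPBP (7 genes) were in both lists, a state shared by 36.6% of all genes. HLA-F was in inflachromene alone, as were 1.59% of all genes, and NLRC5 was in DMSO alone, as were 9.26%. These shares moved with the lengths of the lists: with the DMSO list shortened to the length of the other, 4.48% of all genes were in inflachromene alone and 4.37% in DMSO alone, and NLRC5 was in neither list. Of the 7 genes in both lists, 5 had fewer fragments in inflachromene at their strongest pair of peaks, against 77.3% of all genes with a pair. TAP1 and TAPBP had slightly more. The median ratio over the 7 was 0.741. Because the 9 genes were chosen with earlier results of these data known, the shares of all genes are printed for scale. Enrichment was not tested.

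The promoters are shown first, since the summits at HLA-B, HLA-C, B2M and TAP2 fell inside them in both lists. Each window runs from 250 bases before the start to 50 after it, read 5′ to 3′ on the gene's own strand from the RefSeq table of the GRCh38.p14 build. The letters are those of the reference, not of the PANC-1 alleles. HLA-B (chr6:31357130-31357429, minus strand), HLA-C (chr6:31272043-31272342, minus strand) and HLA-F (chr6:29723184-29723483, plus strand) are printed because the first 2 carry a peak at the start and the third does not. B2M (chr15:44711267-44711566, plus strand) is printed as the light-chain partner on another chromosome. Capitals mark matches, on either strand, to GAAANNGAA (interferon-stimulated response), GGGNNNTCC (NF-kB), TGACG (the half-site of a cyclic AMP response element, also the core of the X2 box) and CCAAT (Y box).

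HLA-B: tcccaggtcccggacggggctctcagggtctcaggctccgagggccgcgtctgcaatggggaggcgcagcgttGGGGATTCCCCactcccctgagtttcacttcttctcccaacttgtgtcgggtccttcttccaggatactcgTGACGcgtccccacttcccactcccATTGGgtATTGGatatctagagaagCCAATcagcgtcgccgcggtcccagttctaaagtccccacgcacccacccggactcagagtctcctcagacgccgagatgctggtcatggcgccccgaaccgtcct
HLA-C: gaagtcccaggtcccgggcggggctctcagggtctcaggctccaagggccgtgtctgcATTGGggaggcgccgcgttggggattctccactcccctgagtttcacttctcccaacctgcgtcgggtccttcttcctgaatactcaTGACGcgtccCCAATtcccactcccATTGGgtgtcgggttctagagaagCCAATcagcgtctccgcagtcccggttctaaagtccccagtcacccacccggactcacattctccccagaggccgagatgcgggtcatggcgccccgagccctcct
HLA-F: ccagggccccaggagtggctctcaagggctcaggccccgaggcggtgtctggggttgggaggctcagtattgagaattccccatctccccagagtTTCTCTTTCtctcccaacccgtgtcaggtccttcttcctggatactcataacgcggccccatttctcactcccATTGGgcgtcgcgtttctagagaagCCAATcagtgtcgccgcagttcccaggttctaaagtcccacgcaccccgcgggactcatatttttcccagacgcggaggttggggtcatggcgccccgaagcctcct
B2M: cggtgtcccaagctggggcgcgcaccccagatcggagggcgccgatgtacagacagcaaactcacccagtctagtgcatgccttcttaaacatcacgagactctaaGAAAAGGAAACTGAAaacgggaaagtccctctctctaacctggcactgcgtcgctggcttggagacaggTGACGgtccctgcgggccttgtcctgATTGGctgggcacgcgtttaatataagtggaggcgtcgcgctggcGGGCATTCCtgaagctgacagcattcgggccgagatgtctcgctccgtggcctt

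The 3 heavy-chain windows are alike. Aligned end to end, HLA-B and HLA-C were identical at 88.5% of aligned columns, HLA-B and HLA-F at 79.7% and HLA-C and HLA-F at 78.9%, while B2M matched HLA-B at 49.4%. The longest stretch of identical letters was 25 bases between HLA-B and HLA-C and 18 between HLA-B and HLA-F. Mean fragment lengths inferred from the lists were 165.7 bp for inflachromene and 152.4 bp for DMSO. How the authors' mapping treated reads from such similar and polymorphic loci was not tested. Neither list held a peak on an alternate haplotype sequence.

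At HLA-B the summit held 20 fragments in inflachromene (12.2 to 30.9; chr6:31357149-31357452) and 27 in DMSO (17.8 to 39.3; chr6:31357062-31357371). The ratio was 0.741, with an interval of 0.394 to 1.37. The 2 summits were 1 bp apart, 108 and 109 bp upstream of the start, and both lay just upstream of the TGACG match at 106 to 102 bp upstream. By deposited fold enrichment, the ratio of pileup to local background with 1 added to both, the peak reached 7.40-fold and 8.29-fold. These were ordinary values, since 45.7% of all inflachromene peaks and 54.9% of all DMSO peaks had a lower fold enrichment.

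HLA-C, the other classical heavy-chain gene, had a higher peak. Its summit held 26 fragments in inflachromene (17.0 to 38.1; chr6:31271970-31272281) and 36 in DMSO (25.2 to 49.8; chr6:31272018-31272348), a ratio of 0.722 (0.419 to 1.23). The inflachromene summit lay 82 bp and the DMSO summit 108 bp upstream of the start. Fold enrichment was 8.77 in inflachromene and 11.2 in DMSO.

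HLA-E, which presents leader peptides of other class I chains to natural killer cells, had the strongest DMSO peak of the group. The summit held 30 fragments in inflachromene (20.2 to 42.8; chr6:30489201-30489598) and 56 in DMSO (42.3 to 72.7; chr6:30489245-30489673). The ratio of 0.536 had an interval of 0.332 to 0.849, which excludes 1 and the ratio of fragment numbers but includes the genome-wide median of 0.822. It was the lowest ratio among the 7 genes. Of 1697 genes whose mean pileup lay within 20% of that of HLA-E, 2.18% had a lower ratio. Fold enrichment was 9.43 in inflachromene and 15.2 in DMSO, and 94.4% of all DMSO peaks had a lower fold enrichment. The local background, the pileup expected from the surroundings, was 2.29 in inflachromene and 2.74 in DMSO and so differed less than the pileup. Both summits lay just outside the gene's lower-coordinate end, by 92 bp in inflachromene and 62 bp in DMSO. The strand of HLA-E is not in the tables used here.

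HLA-F, the remaining heavy-chain gene, differed from HLA-B and HLA-C in having no peak within 1 kb of its start in either list. Its single peak lay at the other end of the gene, 282 bp inside the 3′ end and within the antisense transcript gene HLA-F-AS1 (chr6:29738142-29738387). It was found in inflachromene alone, with 15 fragments (8.40 to 24.7) at 7.44-fold. Among the 1356 inflachromene peaks with 14 to 16 fragments, 21.2% (exact interval 19.1 to 23.5) had no DMSO partner. DMSO peaks at a like background were called with as few as 8 fragments, so a missing peak bounds the DMSO pileup only loosely and does not show that no fragment was there. Of the 4 motifs, the HLA-F window lacks TGACG and GGGNNNTCC and holds CCAAT and GAAANNGAA.

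In DMSO the B2M peak lay between those of HLA-C and HLA-E in height. The summit held 30 fragments in inflachromene (20.2 to 42.8; chr15:44711324-44711571) and 43 in DMSO (31.1 to 57.9; chr15:44711141-44711710), a ratio of 0.698 (0.423 to 1.14). The summits lay 52 and 100 bp upstream of the start, on either side of the TGACG match at 75 to 71 bp upstream. The inflachromene peak was 248 bp wide and lay wholly within the 570 bp DMSO peak. The same peak also lay at an end of PATL2, an RNA-binding protein gene read in the opposite direction, and cannot be credited to 1 of the 2 genes.

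**Figure D1:**
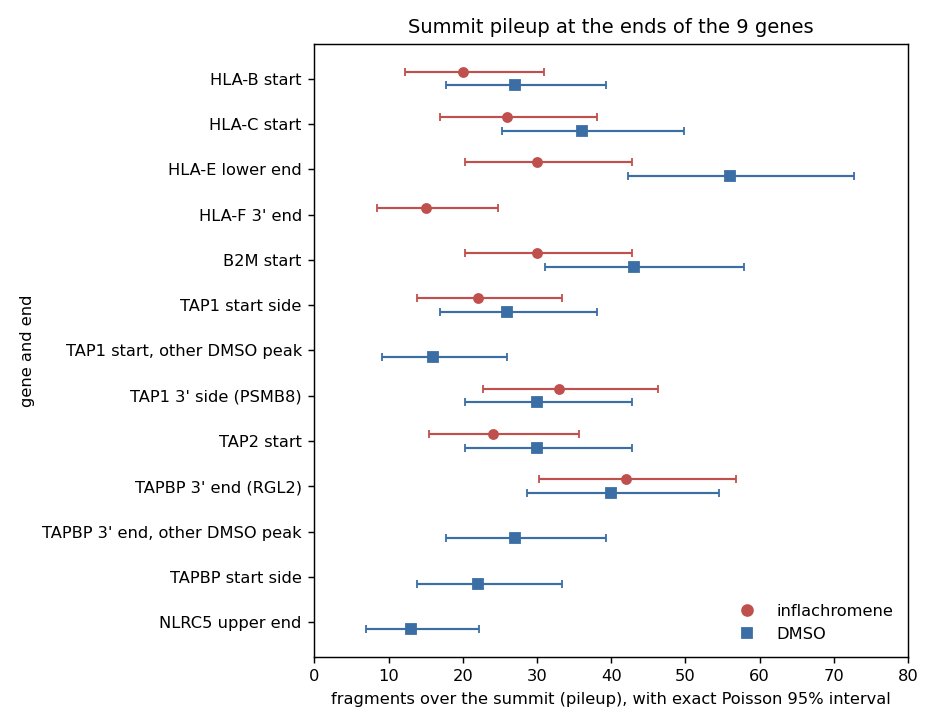
Fragments over the summit (x axis) for each gene-end peak of the 9 genes (y axis), in inflachromene (circles) and DMSO (squares); bars are exact Poisson 95% intervals for counting error. The HLA-E intervals overlap least, at 30 against 56 fragments, while the TAP1 3′ side and the TAPBP 3′ end hold 33 against 30 and 42 against 40.

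The transporter genes lie side by side in the class II part of the MHC, with the immunoproteasome genes PSMB8 and PSMB9 between and beyond them. At the TAP2 start the summit held 24 fragments in inflachromene (15.4 to 35.7; chr6:32838594-32838905) and 30 in DMSO (20.2 to 42.8; chr6:32838610-32838932). The ratio was 0.8 (0.448 to 1.42), close to that of all genes. The summits lay 69 and 87 bp upstream of the start, beside an interferon-response match at 58 to 50 bp upstream.

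TAP1 had peaks at both ends. Between the TAP1 start and the start of PSMB9, which is read away from it, the inflachromene list held 1 peak (chr6:32853738-32854259) and the DMSO list 2 (chr6:32853563-32853823 and chr6:32854039-32854299). The inflachromene summit held 22 fragments (13.8 to 33.3) and lay 123 bp upstream of PSMB9 and 365 bp upstream of TAP1. The nearer DMSO summit held 26 fragments (17.0 to 38.1), 110 bp upstream of PSMB9, and the ratio of the 2 was 0.846 (0.457 to 1.55). The other DMSO summit held 16 fragments (9.15 to 26) and lay 19 bp upstream of the TAP1 start. The summit on the PSMB9 side was thus found in both lists. The inflachromene list had no separate summit beside the other DMSO summit, but its peak overlapped that DMSO peak by 86 bp. By overlap these 2 peaks also counted as a pair, with a ratio of 1.375 (0.69 to 2.8).

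At the other side of TAP1 a peak lay at the PSMB8 start and within the antisense gene PSMB8-AS1, 534 bp past the TAP1 3′ end in inflachromene and 479 bp in DMSO. It held 33 fragments in inflachromene (22.7 to 46.3; chr6:32844509-32844836) and 30 in DMSO (20.2 to 42.8; chr6:32844554-32844900). The ratio of 1.1 had an interval of 0.65 to 1.87. The local background was higher in inflachromene here, 2.16 against 1.49, so that the fold enrichment was lower in inflachromene, 10.8 against 12.5. Pileup and fold enrichment therefore pointed in opposite directions at this peak, which is the one that counted as the strongest pair of TAP1.

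The window of PSMB9, an immunoproteasome subunit gene, is printed because it holds the summit found in both lists (chr6:32853942-32854241, plus strand). That of TAP1 is printed because it holds the other DMSO summit (chr6:32853655-32853954, minus strand). The capitals mark the same motifs.

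PSMB9: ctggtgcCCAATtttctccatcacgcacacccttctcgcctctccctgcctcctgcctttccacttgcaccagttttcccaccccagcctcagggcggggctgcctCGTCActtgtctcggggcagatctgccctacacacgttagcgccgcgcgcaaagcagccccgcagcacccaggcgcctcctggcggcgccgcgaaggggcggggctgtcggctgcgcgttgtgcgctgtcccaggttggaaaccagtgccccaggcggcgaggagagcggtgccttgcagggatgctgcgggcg
TAP1: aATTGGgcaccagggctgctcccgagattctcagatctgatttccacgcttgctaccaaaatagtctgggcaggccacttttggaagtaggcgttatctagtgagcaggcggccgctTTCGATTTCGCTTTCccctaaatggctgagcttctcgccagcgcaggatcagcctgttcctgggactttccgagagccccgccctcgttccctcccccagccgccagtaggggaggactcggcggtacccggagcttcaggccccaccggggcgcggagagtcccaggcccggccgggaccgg

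TAPBP lay in a crowded stretch of the MHC, where the local background ran between 3.40 and 5.28 in all but 1 of the peaks within 20 kb, against medians of 2.10 in inflachromene and 2.19 in DMSO over all genes with a pair. Its shared peak was at the 3′ end, with 42 fragments in inflachromene (30.3 to 56.8; chr6:33299367-33299615) and 40 in DMSO (28.6 to 54.5; chr6:33299323-33299841), a ratio of 1.05 (0.665 to 1.66). Unlike at TAP1, fold enrichment was also higher in inflachromene, 8.47 against 6.91. This peak lay 583 and 521 bp upstream of an annotated start of RGL2, a Ral guanine nucleotide exchange factor gene, so it cannot be credited to TAPBP. A second DMSO peak with 27 fragments (17.8 to 39.3; chr6:33298837-33299151) lay 24 bp upstream of that RGL2 start and had no inflachromene partner. On the start side of TAPBP, 566 bp upstream and inside the 3′ part of ZBTB22, there was a weak DMSO peak of 22 fragments (13.8 to 33.3) at 3.85-fold, again without a partner. Only 1.19% of all DMSO peaks had a lower fold enrichment.

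NLRC5 spans 93964 bp and had no peak inside it in either list and none at its lower-coordinate end. The single peak, in DMSO alone, held 13 fragments (6.92 to 22.2; chr16:57084402-57084567) at 7.03-fold and lay 931 bp beyond the upper end, just inside the 1 kb limit. Among the 1592 DMSO peaks with 12 to 14 fragments, 74.4% (72.2 to 76.6) had no inflachromene partner. Most DMSO peaks of that height were thus without one, as at NLRC5. NLRC5 has no entry in the promoter table.

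Taken by gene start, the picture was narrower. For the 7 genes with a promoter window, HLA-B, HLA-C, B2M, TAP1 and TAP2 had a peak within 1 kb of a start in both lists, as did 40.5% of all protein-coding genes with a window. TAPBP had one in DMSO alone, as did 9.73%, and HLA-F had none. The summits at HLA-B, HLA-C, B2M and TAP2 lay 52 to 109 bp upstream of the start. Over all peaks with a start within 1 kb, the median summit position relative to the start was -73 bp in inflachromene (quartiles -134 and -17 bp, 6537 peaks) and -68 bp in DMSO (quartiles -125 and -13 bp, 8163 peaks). The summits of the 4 genes thus lay within the usual range.

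Motif matches were counted in the windows of the 7 genes and in all 34961 promoter windows of the table. GAAANNGAA was found in 5 of the 7 (HLA-F, B2M, TAP1, TAP2 and TAPBP) and in 8.11% of all windows. In B2M, TAP1 and TAPBP there were 2 matches that overlapped each other. TGACG was in 4 of the 7 (HLA-B, HLA-C, B2M and TAP2) and in 24.5% of all windows, and CCAAT in 5 (all but TAP2 and TAPBP) and in 34.6%. GGGNNNTCC was in 3 (HLA-B, B2M and TAPBP) and in 21.1%. At HLA-B it matched on both strands of the same stretch, and at B2M it lay across the start. The pattern allows only 3 bases between GGG and TCC. Stretches with a longer gap, such as gggactttcc in TAP1, gggaaagtcc in B2M and gggattctcc in HLA-C, are thus not counted. TGANTCA, the letters of an AP-1 site, was in none of the 7 and in 7.68% of all windows. GGGCGG, a GC box, was in 4 (HLA-C, TAP1, TAP2 and TAPBP) and in 45.0%. Both genes without a shared start peak, HLA-F and TAPBP, hold the interferon-response letters, but so do B2M, TAP1 and TAP2, which had one. Neither HLA-F nor TAPBP holds TGACG. The TAP1 window does not hold TGACG either. However, the summit found in both lists on the start side of TAP1 lies in the PSMB9 window. That window holds TGACG, read on the opposite strand, at 144 to 140 bp upstream of PSMB9. A match describes these exact letters only, and a window without one may hold another form of the site.

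**Figure D2:**
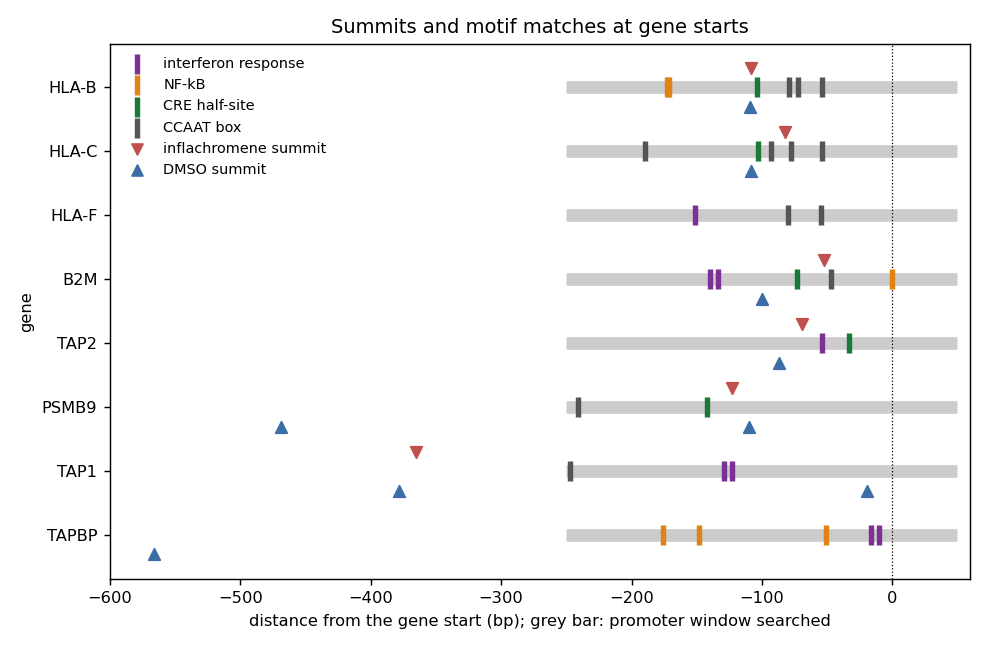
Position of motif matches (vertical ticks) in the promoter windows (grey bars) of 7 of the genes and of PSMB9, with the inflachromene summits (triangles above each bar) and the DMSO summits (triangles below); the x axis is the distance from the gene start in bp. Summits at HLA-B, HLA-C, B2M and TAP2 lie 52 to 109 bp upstream, HLA-F has none, and the summits of the peaks between TAP1 and PSMB9 appear on both of their lines.

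Set beside all genes, the ratios of the 7 genes spread on both sides of the median. Among genes of like mean pileup, 35.0% had a lower ratio than HLA-B, 31.1% than HLA-C, 24.7% than B2M and 47.0% than TAP2. The corresponding shares were 88.7% for TAP1 and 87.3% for TAPBP. By pileup the 4 lowest ratios were those of HLA-E, B2M, HLA-C and HLA-B. By fold enrichment this order did not hold, since HLA-B, at 0.892, lay above TAP2 at 0.810 and TAP1 at 0.862. The peaks of TAP1 and TAPBP, with ratios above 1, and that of B2M, with one below 1, lie within 1 kb of the start of a neighbouring gene. Apart from HLA-E, the interval of each ratio included both 1 and 0.822, so the order of these ratios is not resolved at this depth.

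**Figure D3:**
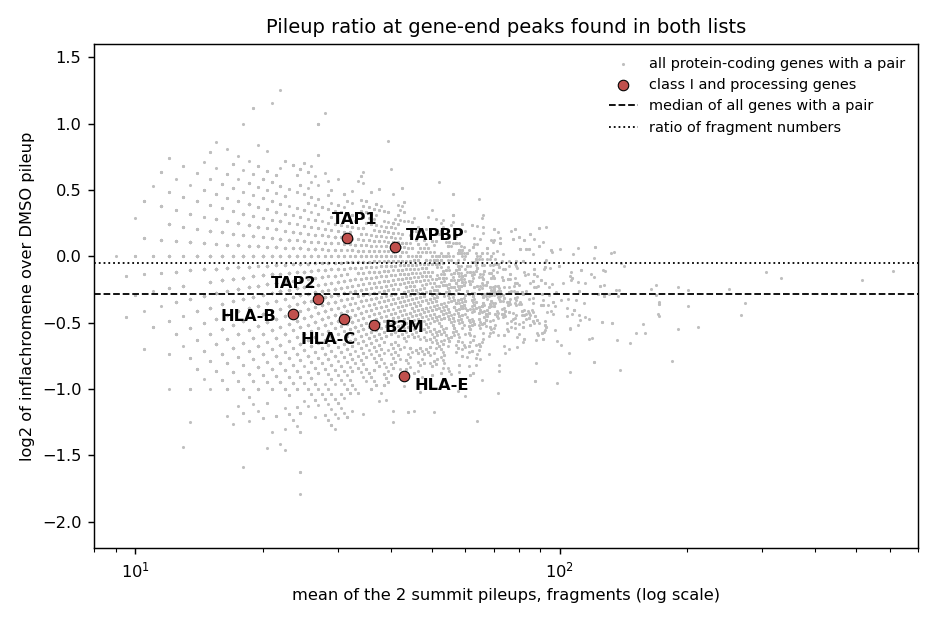
Log2 of the ratio of inflachromene to DMSO pileup (y axis) against the mean of both pileups on a log axis (x axis) for all protein-coding genes with an overlapping gene-end pair (grey) and for the 7 class I and processing genes with one (red); the dashed line is the median of all genes, 0.822 as a ratio, and the dotted line the ratio of fragment numbers, 0.965. HLA-E lies lowest of the 7, and TAP1 and TAPBP lie above the dotted line.

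Within 20 kb of the 9 genes there were 14 inflachromene peaks and 20 DMSO peaks, each counted once. Of the inflachromene peaks 2 had no DMSO partner, against 9.62% of that whole list, and of the DMSO peaks 7 had no inflachromene partner, against 35.5%. The 9 genes' own ends accounted for 9 of the inflachromene and 12 of the DMSO peaks. The 2 inflachromene peaks without a partner were that of HLA-F and 1 of 16 fragments near the starts of WDR46 and PFDN6 and at an end of MIR6834 (chr6:33289464-33289710). The DMSO peaks without one were those of NLRC5 and both weaker peaks of TAPBP, and 4 away from the 9 genes' ends.

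These 4 lay around the heavy-chain genes. Near HLA-B, 1 of 16 fragments lay at the pseudogene DHFRP2 (chr6:31366930-31367120) and 1 of 13 fragments at no gene end (chr6:31374100-31374352). Near HLA-E there was 1 of 17 fragments (chr6:30482148-30482326), and near HLA-F 1 of 27 fragments (chr6:29753112-29753341), both at no gene end. All 3 DMSO peaks that lay at no gene's end were without a partner. No peak besides the one at the start was found within 20 kb of HLA-C in either list.

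Beside TAPBP and B2M the strongest peak within 20 kb lay at the end of another gene and was found in both lists. At the DAXX and SMIM40 ends, beside TAPBP, the summit held 73 fragments in inflachromene and 80 in DMSO, a ratio of 0.912 (0.655 to 1.27). DAXX encodes a histone chaperone. At the pseudogene RNF4BP, beside B2M, it held 62 fragments in inflachromene and 74 in DMSO (0.838; 0.588 to 1.19). Between ZBTB22 and DAXX it held 35 and 41 fragments in the same order (0.854; 0.528 to 1.37), and at WDR46 26 in inflachromene and 20 in DMSO (1.3; 0.698 to 2.46).

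**Figure D4:**
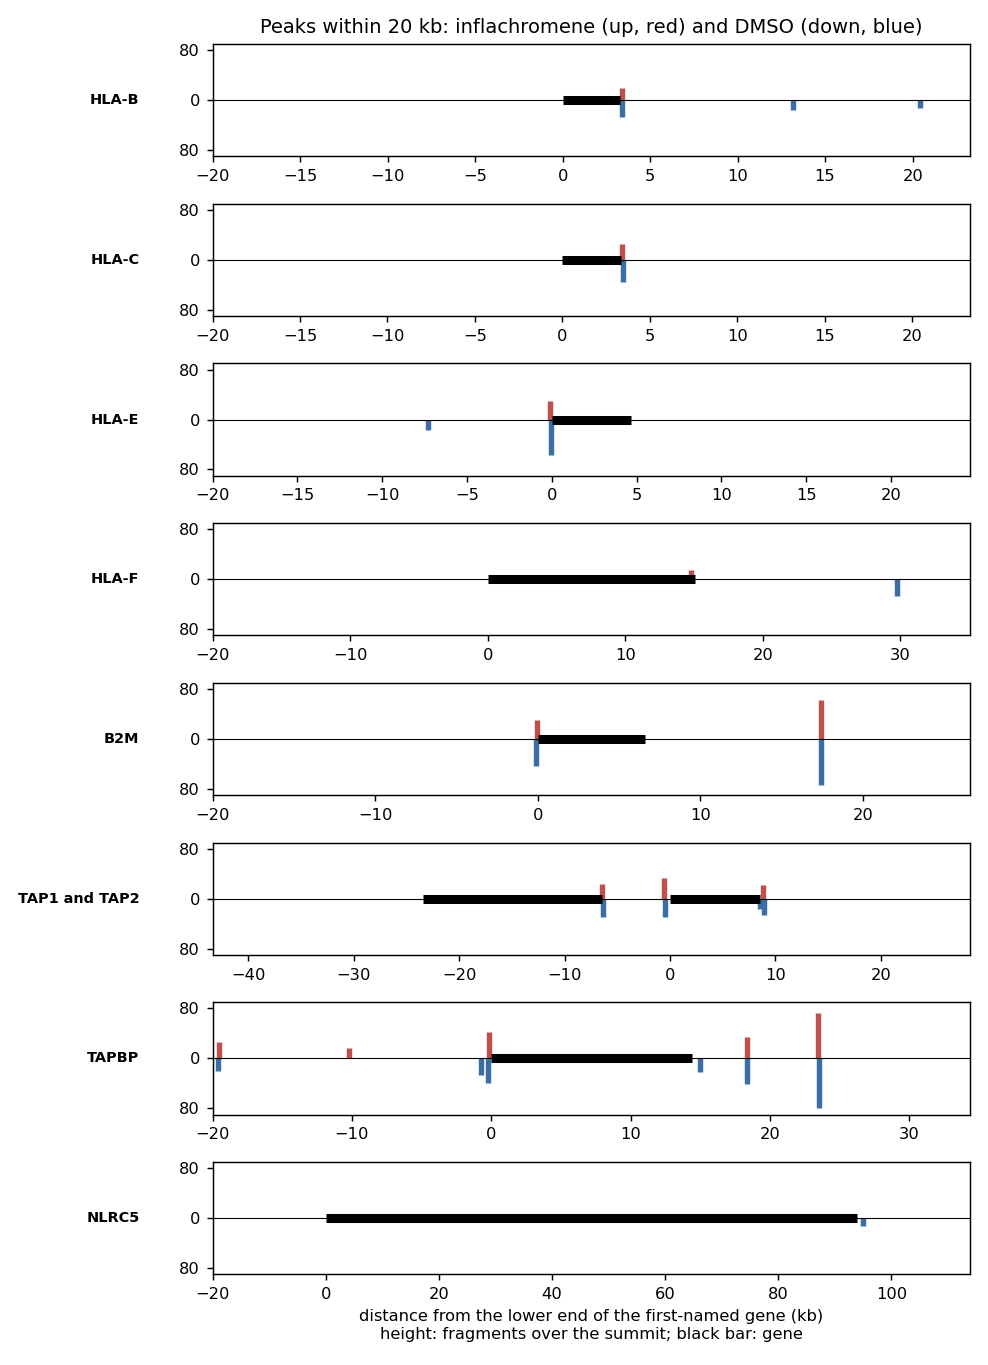
All peaks within 20 kb of the 9 genes, 1 panel per locus: inflachromene peaks point up and DMSO peaks down, with heights giving the fragments over the summit, black bars the genes, and the x axis the distance in kb from the lower-coordinate end of the first-named gene. The tallest peaks, 73 against 80 fragments, stand beside TAPBP at DAXX, and HLA-C has no peak other than the one at its start.

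In 7 lists, likewise chosen with earlier results of these data known, the wider antigen presentation pathway was described with 62 further genes. Of these 30 had a gene-end peak in both lists, 1 in inflachromene alone and 5 in DMSO alone, and 26 had none, where 36.6%, 1.59%, 9.26% and 52.6% of all protein-coding genes fell into these classes. Over the 29 with an overlapping pair the median ratio was 0.8, with 25 lower in inflachromene, 1 equal and 3 higher, beside a median of 0.822 and 77.3% lower over all genes with a pair. The 62 genes are not independent of the 9, since PSMB8 and PSMB9 count again the pairs already given at both sides of TAP1. The lists below stand against the same shares.

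Of 16 genes that encode factors acting on class I promoters, 14 had a peak in both lists, against 36.6% of all genes, with a median ratio of 0.755 against 0.822. STAT3 held 72 fragments in inflachromene and 102 in DMSO (0.706; 0.515 to 0.964), and CREB1, a factor that binds cyclic AMP response elements, held 60 in inflachromene and 82 in DMSO. NFKB1 and RFXAP had no peak. Of the 6 immunoproteasome and activator genes, 4 were in both lists, and PSME3 was in DMSO alone with 12 fragments. PSME2, an activator subunit gene, held 55 fragments in inflachromene and 67 in DMSO, at a peak it shares with RNF31. Of the 6 peptide loading and trimming genes, 4 were in both lists and all 4 held fewer fragments in inflachromene, as did 77.3% of all genes with a pair. CALR, the chaperone calreticulin, held 62 in inflachromene and 65 in DMSO, while ERAP1, the aminopeptidase that trims peptides, held 31 in inflachromene and 51 in DMSO (0.608; 0.376 to 0.968) at a peak shared with LNPEP.

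Of the 8 interferon receptor and kinase genes, 4 were in both lists, among them TYK2 with 37 fragments in inflachromene and 45 in DMSO, and IFNGR1 with 15 in inflachromene and 23 in DMSO. Both type I receptor genes, IFNAR1 with 14 fragments and IFNAR2 with 16, had a peak in DMSO alone. Most weak DMSO peaks did: of those with 12 to 14 fragments, the range of IFNAR1 and PSME3, 74.4% had no inflachromene partner. JAK2 had a peak at its end in each list, 11 fragments in inflachromene and 13 in DMSO, but these did not overlap. SOCS1 held 17 and 20 fragments in the same order.

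Of 13 class II genes, 10 had no peak in either list, HLA-DRA and CD74 among them, where 52.6% of all protein-coding genes had none. HLA-DMA held 12 fragments in inflachromene and 16 in DMSO, CIITA, the class II transactivator, held 15 in inflachromene and 19 in DMSO at a peak shared with DEXI, and HLA-DMB had 15 in DMSO alone. Of 10 class I-like and non-classical genes 7 had none, HLA-G among them. ULBP3, a ligand of the receptor NKG2D, held 36 fragments in inflachromene and 41 in DMSO. The related stress ligands differed in which list held them, with MICA in inflachromene alone (23 fragments, chr6:31399851-31400047) and MICB in DMSO alone (22 fragments, chr6:31493858-31494010). CD274 and PDCD1LG2, which encode checkpoint ligands, had no peak, and CD47 held 21 fragments in inflachromene and 18 in DMSO.

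**Figure D5:**
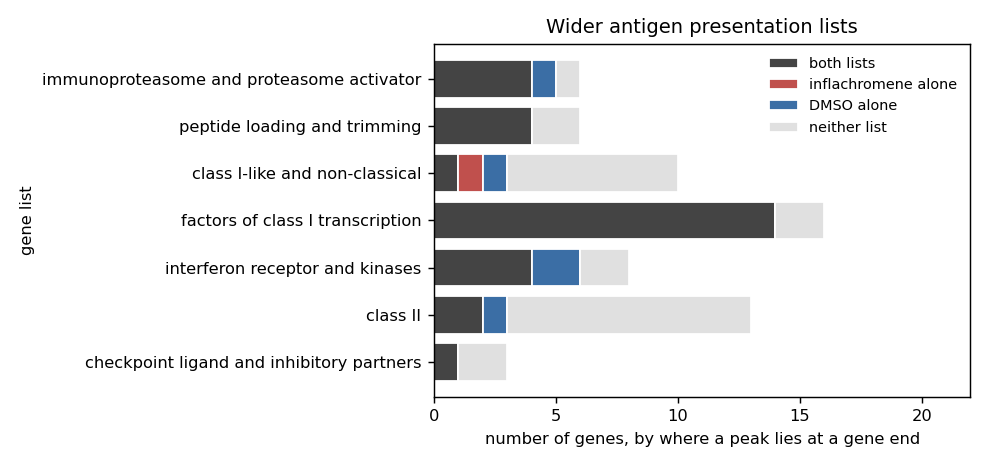
Number of genes (x axis) in each of the 7 further lists (y axis) with a gene-end peak in both lists, in inflachromene alone, in DMSO alone or in neither. The factors of class I transcription have 14 of 16 genes in both lists, and the class II genes 2 of 13.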

How the data were processed

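Each sample had 1 deposited narrowPeak list, made with MACS2 on the hg38 build, per the submitters' processing notes, which also name deepTools 3.5.6. For the MACS2 version, the aligner, duplicate handling and any control library the labels used here give nothing. Per the deposited lists, each peak has a fold enrichment (a ratio of pileup to background, which the values fit with 1 added to both), a −log10 p-value, a −log10 q-value and a score, which was not used. The lowest deposited −log10 q was 3.01 in inflachromene and 3.02 in DMSO. No read counts are in the lists, so depth per library is known only as the inferred ratio of fragment numbers. The pileup is the whole number that gives both the deposited fold enrichment and the −log10 p, read as a Poisson tail, within 0.001; one was found for every peak on chromosomes 1 to 22 and X, and the step was tested on simulated data. Fragment lengths were inferred from the even steps of the background, read as single fragment ends in the 10 kb window that MACS2 uses, and the ratio of fragment numbers from each list's lowest background divided by that length. Peaks that overlapped by at least 1 bp were taken as a pair. Genes and promoter windows came from RefSeq tables of GRCh38.p14, which shares hg38 coordinates on these chromosomes. Python 3.11.15, scipy 1.17.1 and Biopython 1.88 were used, the last for global alignment of promoter windows. No test was made, as each treatment had 1 sample. The named genes were all 9 members, the genes at ends inside their 20 kb neighbourhoods, and from the wider lists those in 1 list alone and the 2 highest per list; a few others, such as ERAP1, IFNGR1, JAK2, SOCS1 and genes with no peak, were named after their values were seen. Members and lists were chosen with earlier results of these data known. Some items among the lists and motifs are not reported here.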

Additional observations from a re-analysis of the deposited data

How the results depend on the processing

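The 7 genes in both lists stayed at 7 with a window of 2500 bp, with each list's own summits only, with a −log10 q of at least 5, and with the DMSO list shortened to as many peaks as the inflachromene list. With starts only they were 5 (of 7 genes with a promoter window), and the genes in inflachromene alone were 0, because the HLA-F peak lies at the 3′ end. The gene in DMSO alone was then TAPBP. The DMSO list of that shorter length left 0 genes in DMSO alone, because the weak NLRC5 peak dropped out of it. Within 10 kb, 1 inflachromene peak had no partner. With a reciprocal overlap of 50%, 5 inflachromene and 11 DMSO peaks within 20 kb had no partner. The median ratio of 0.741 was 0.810 with fold enrichment as deposited (0.860 over all genes) and 0.768 after division by the ratio of fragment numbers (0.852 over all genes). It did not move with the strongest pair taken by DMSO fold enrichment, nor, in an alternative added after the data were seen, with the start-side pair of TAP1. No paired analysis was possible because each treatment had 1 sample. At 13 to 56 fragments a summit, only the HLA-E ratio, of those of the 7 genes in both lists, had an interval that excluded 1. In the wider lists the intervals of ERAP1 and STAT3, picked out of all genes with a pair, also did. All of these intervals included 0.822, the median ratio over all genes with a pair.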
